A study of Mus musculus with 9 samples.

Results

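The messenger RNAs of 45 cell division genes were followed in epididymal adipose tissue of obese male mice while they lost weight. The genes were taken by name from textbook knowledge of the cell cycle, with earlier results of these data known. Of the 45, 16 act in S phase, when DNA is copied, or prepare for it, and 29 act in G2 and mitosis, when the copies are separated. The table of read counts held 56748 genes, and all 45 were found in it under a single row each. Wild-type C57BL/6J males began a high-fat diet (HFD) at 8 weeks of age and ate it for 8 weeks, and tissue taken at this point is called Pre. Other mice were then switched to a standard diet (SD) for 1 week (WL1) or 2 weeks (WL2). Each phase had 3 RNA-seq libraries, 9 in all, and the labels do not say whether a library came from 1 mouse, so the spread between libraries may be partly technical. All groups shared the strain, sex and HFD period, and the mice became older as the time on SD grew, so age and diet time cannot be told apart.

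As background, a cell that divides loads the MCM helicase on DNA in G1 and commits in late G1 through cyclin E. It then makes nucleotides and copies DNA in S phase, and afterwards builds the cyclin B and CDK1 kinase that drives mitosis. S-phase genes are classical targets of E2F transcription factors, while many G2 and mitosis genes are controlled by the MuvB complex with B-MYB and FOXM1 through a promoter element called CHR, often near CCAAT boxes bound by NF-Y. In adipose tissue of obese mice, macrophages, adipocyte progenitors and endothelial cells are known to divide, whereas mature adipocytes are regarded as non-dividing. These libraries came from whole tissue, in which fewer dividing cells and less of an RNA per cell cannot be told apart.

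The libraries held between 16434450 and 22729072 counted reads. A gene was tested if it reached 0.5 CPM (its reads scaled to a common library size) in at least 1 library, which left 18510 genes and all 45 members. The fewest reads of any member in any library were 8, for Ttk. Adipocyte and epididymis markers matched the label, since the 10 adipocyte markers summed to between 20940 and 37430 CPM in the 9 libraries, and none of 8 epididymis markers reached the filter, with Defb19, Spint4 and Defb48 at 0 in every library. Liver markers were uneven between libraries, as given below. Pre replicate 2 stood apart. In it the 6 members with exons summing to over 8000 bases were all below the mean log2 CPM of the other Pre libraries. The median log2 difference was -1.11, while the median over all 2605 tested genes of that length was -0.09. The difference was greatest for Mki67, at -2.23, and for Cenpe, at -1.79. It was smallest for Rrm1, at -0.04, where Pre replicate 2 was not the lowest Pre library. WL2 replicate 1 also differed from its group, because it held the highest value of the 3 WL2 libraries for 27 of the 29 G2 and mitosis members and 11 of the 16 S-phase members, against 39.0% of all genes tested. WL2 replicate 2 was the lowest WL2 library for 23 and 10 of them, against 30.2% of all genes. Pre replicate 2 was the lowest Pre library for 14 of the G2 and mitosis and 3 of the S-phase members, against 37.1%. It was the highest Pre library for 7 and 11 of them. Below, CPM values are scaled by TMM, a method that sets the libraries to a common level using most genes. Adjusted p-values come from the edgeR quasi-likelihood F test, corrected over all genes tested by the Benjamini-Hochberg method, and a gene is said to have risen or fallen only where this value is under 0.05. When library totals alone were used for scaling, the median log2 fold change of all genes moved to 0.12 for WL1 against Pre and to 0.16 for WL2 against Pre, and all calls at WL1 against Pre split into 1003 higher and 642 lower in place of 482 and 868. At WL2 against Pre they split into 1495 and 835 in place of 620 and 1233. For WL2 against WL1 the split was 242 and 439, and upper quartile factors made it 340 and 364, while for WL1 against the average of the other phases they made it 460 and 440 in place of 520 and 328. Relative to the shifted medians, the G2 and mitosis members had medians of 0.57 for WL1 against Pre and -0.87 for WL2 against Pre, and with TMM the same differences were 0.57 and -0.87.

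The summed level of the G2 and mitosis members was highest after 1 week on SD and lowest after 2 weeks. In Pre it was 247.2, 197.4 and 255.2 CPM in replicates 1 to 3. In WL1 it was 312.8, 362.8 and 356.7 CPM. In WL2 it was 181.4, 86.2 and 111.6 CPM. None of the 3 phases overlapped with another, and the mean at WL2 (126.4 ± 49.3 CPM, SD, n = 3) was 0.367 times that at WL1 (344.1 ± 27.3 CPM) and 0.542 times that at Pre (233.3 ± 31.3 CPM).

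The S-phase members followed the same order with smaller steps. Their sums were 259.8, 310.8 and 285.2 CPM in Pre. They were 331.5, 351.3 and 387 CPM in WL1 and 280.3, 211.1 and 214.3 CPM in WL2. All WL1 libraries lay above all others, but WL2 replicate 1 lay within the range of Pre. The ratio of the G2 and mitosis sum to the S-phase sum was 0.952, 0.635 and 0.895 in Pre, 0.944, 1.03 and 0.922 in WL1, and 0.647, 0.408 and 0.521 in WL2. Every WL2 library had a ratio below every WL1 library, and WL2 replicate 1 lay just above Pre replicate 2. Sums of CPM give most weight to long and abundant genes, and when FPKM (a level corrected for gene length and library size) was summed instead, the G2 and mitosis sum at WL2 was 0.386 times that at WL1.

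**Figure D1:**
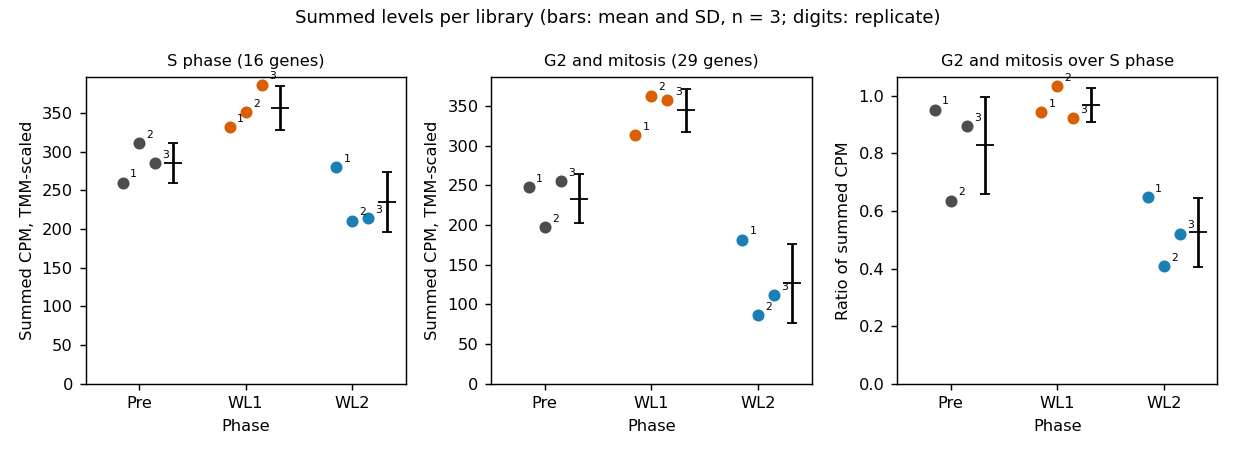
Summed TMM-scaled CPM of the 16 S-phase members (left) and the 29 G2 and mitosis members (middle), and the ratio of the sums (right), in each of the 9 libraries by phase. Points are libraries with their replicate number, and bars are the mean and SD of 3 libraries. The G2 and mitosis sums of WL2, 86.2 to 181.4 CPM, lie below those of Pre, 197.4 to 255.2 CPM, and of WL1, 312.8 to 362.8 CPM.

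Per length, the members were of low to moderate abundance. Pcna, the sliding clamp of DNA polymerase, had the highest level of the 45 at Pre, 20.6 ± 2.4 FPKM (SD, n = 3). It was followed by Mcm7 at 6.74 ± 0.572 FPKM, Mcm6 at 5.62 ± 1.14 FPKM and Ube2c at 5.51 ± 0.49 FPKM, and the range of Mcm6 overlapped with both of the others. The lowest was Cenpf, a large kinetochore protein, at 0.257 ± 0.111 FPKM. The marker of cycling cells most used in histology, Mki67, stood at 2 ± 1.23 FPKM in Pre, 3.29 ± 0.108 FPKM in WL1 and 1.12 ± 0.422 FPKM in WL2.

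**Figure D2:**
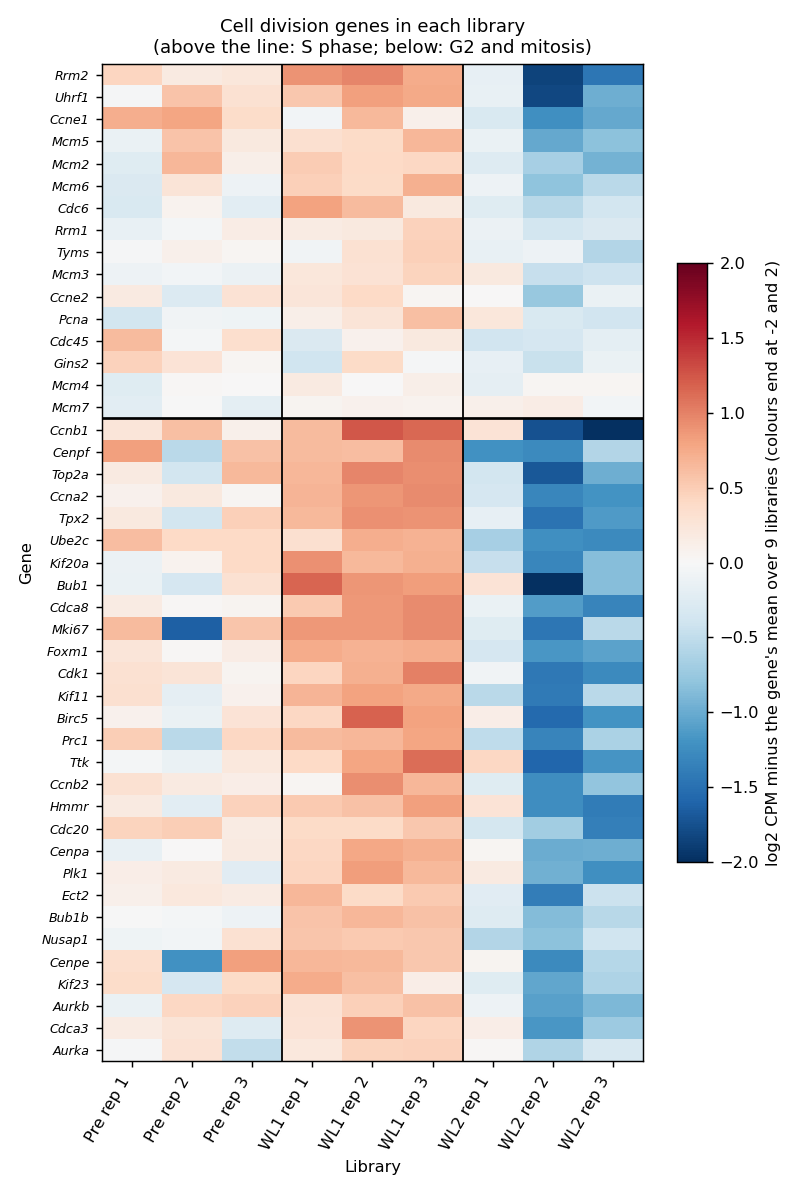
Each row is a member and each column a library. Colour is log2 CPM minus the mean of that gene over the 9 libraries, with S-phase members above the black line and G2 and mitosis members below it, each ordered by the change from WL1 to WL2. In WL2 replicates 2 and 3 nearly all G2 and mitosis rows are blue, WL2 replicate 1 is paler, and Mki67 and Cenpe are blue in Pre replicate 2. The rows of Mcm4 and Mcm7 are close to white throughout.

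The promoters of the members were searched for the sequence elements that the background above names. RefSeq promoter windows of 300 bases, from 250 before to 50 after the transcription start, were found for 37 of the 45 members as 41 windows. The remaining members are Foxm1, Mcm4, Ccne2, Aurkb, Ccna2, Kif20a, Gins2 and Tpx2. Searched on both strands, the letters TTTGAA or TTCGAA (CHR) occurred in 22 of 26 windows of G2 and mitosis members, or 84.6% (95% Wilson interval 66.5 to 93.8). They occurred in 3 of 15 S-phase windows, or 20% (7.05 to 45.2), and in 19.2% of the 32851 windows of all genes. The E2F letters TTTCCCGC, TTTGGCGC, TTTCGCGC or TTTGCCGC showed the opposite, with 6 of 15 S-phase windows (40%, 19.8 to 64.3), 1 of 26 G2 and mitosis windows, and 2.26% of all windows. CCAAT occurred in 80% of S-phase, 92.3% of G2 and mitosis and 37.4% of all windows. On the gene's own strand alone the CHR shares were 73.1%, 20% and 11.6% for G2 and mitosis members, S-phase members and all genes. The intervals cover counting only, some members have more than 1 overlapping window, and a match is a description of letters, not of a bound site.

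The 250 bases before the start of 5 members are given 5′ to 3′ on the gene's strand, in build GRCm38.p6, to show how both kinds of promoter look. Capitals mark the CCAAT, CHR and E2F letters on either strand, so that a match on the other strand is printed as its reverse complement, and matches that touch or overlap run together. Ube2c, Top2a and Cdk1 are shown as G2 and mitosis members that fell after WL1, and lie at chr2:164769679-164769928 (+), chr11:99024190-99024439 (-) and chr10:69352913-69353162 (-). Mcm6 and Mcm5, at chr1:128359706-128359955 (-) and chr8:75109259-75109508 (+), are shown as S-phase members with E2F letters.
Ube2c: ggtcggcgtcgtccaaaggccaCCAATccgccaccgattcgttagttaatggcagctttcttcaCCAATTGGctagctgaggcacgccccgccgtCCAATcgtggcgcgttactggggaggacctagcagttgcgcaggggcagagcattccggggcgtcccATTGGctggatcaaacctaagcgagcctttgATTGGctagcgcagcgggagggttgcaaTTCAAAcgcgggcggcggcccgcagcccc
Top2a: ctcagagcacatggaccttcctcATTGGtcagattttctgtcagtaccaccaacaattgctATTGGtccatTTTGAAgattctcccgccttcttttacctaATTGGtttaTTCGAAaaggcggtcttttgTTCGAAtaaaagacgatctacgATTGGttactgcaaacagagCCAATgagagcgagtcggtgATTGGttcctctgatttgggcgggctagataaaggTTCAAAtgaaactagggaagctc
Cdk1: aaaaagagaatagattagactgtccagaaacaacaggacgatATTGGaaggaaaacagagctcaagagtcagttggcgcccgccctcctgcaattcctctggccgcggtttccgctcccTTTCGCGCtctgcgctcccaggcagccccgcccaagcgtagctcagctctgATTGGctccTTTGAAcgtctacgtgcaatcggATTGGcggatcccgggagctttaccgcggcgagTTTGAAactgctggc
Mcm6: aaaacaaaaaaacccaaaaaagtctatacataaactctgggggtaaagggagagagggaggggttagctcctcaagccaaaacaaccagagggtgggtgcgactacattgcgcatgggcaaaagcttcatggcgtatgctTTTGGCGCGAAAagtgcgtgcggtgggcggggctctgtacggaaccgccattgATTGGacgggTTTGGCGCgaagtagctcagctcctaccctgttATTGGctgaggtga
Mcm5: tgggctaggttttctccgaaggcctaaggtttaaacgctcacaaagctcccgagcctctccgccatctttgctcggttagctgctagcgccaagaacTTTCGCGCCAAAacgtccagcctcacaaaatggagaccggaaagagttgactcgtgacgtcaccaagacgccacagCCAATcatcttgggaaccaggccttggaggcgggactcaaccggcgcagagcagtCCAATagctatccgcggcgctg
The Ube2c stretch holds 6 CCAAT and 1 CHR match, the latter starting 29 bases before the start. Top2a holds 6 CCAAT and 4 CHR matches, and Cdk1 holds 3 CCAAT, 2 CHR and 1 E2F match, the only E2F match among the G2 and mitosis windows. Neither Mcm6, with 3 E2F matches, nor Mcm5, with 2, holds a CHR match. The windows of Ccnb1, Cenpe, Birc5 and Nusap1 were the 4 of G2 and mitosis members without CHR letters. Birc5, Nusap1, Ccne1 and Tyms held none of the 3 kinds of letters.

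After 1 week on SD, most members lay above Pre and 1 of the 45 passed the test. Of the G2 and mitosis members 29 of 29 were higher, as were 52.0% of all genes, with a median log2 fold change of 0.59, while the median over all genes tested was 0.02. Only Bub1b (ENSMUSG00000040084), a kinase of the spindle checkpoint, rose, so that 1 of 29 was called, where 2.60% of all genes tested were called higher, and 8 had an unadjusted p under 0.05. In the S-phase group 13 of 16 were higher, the median was 0.22 (0.35 without Pre replicate 2), and none passed, with 5 of 16 higher at an unadjusted p under 0.05, against 11.6% of all genes. DESeq2 called 1 of the 16 and limma 0 with either pseudocount. All 3 WL1 libraries lay above all 3 Pre libraries for 21 G2 and mitosis and 7 S-phase members, against 14.7% of all genes.

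Bub1b was measured at 8.85, 8.65 and 8.31 CPM in Pre and at 13.2, 14.2 and 13.4 CPM in WL1. The libraries within each phase lay close together, and the log2 fold change was 0.66 ± 0.17 (SE; adjusted p = 0.0402). The call was lost on leaving out each of the Pre and WL1 libraries or WL2 replicate 3, with log2 fold changes of 0.63 to 0.68 over the 9 fits that each left out 1 library. Without WL2 replicate 1, which shares in the estimate of spread, 5 G2 and mitosis members and 1 S-phase member passed. Over all genes 631 were then called higher in place of 482. The 3 S-phase members below Pre were Ccne1, Cdc45 and Gins2, at log2 fold changes of -0.38, -0.33 and -0.25, none past the threshold (adjusted p = 0.433, 0.358 and 0.525).

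Between 1 and 2 weeks on SD the G2 and mitosis members went down together. At WL2, 29 of 29 were lower than at WL1 and 16 of 29 fell, where 50.1% of all genes tested were lower and 2.37% were called lower. The median log2 fold change was -1.51, against -0.0014 for all genes, and all 29 had an unadjusted p under 0.05, against 12.8% of all genes. In 28 of the 29, Ttk being the exception, all 3 WL2 libraries lay below all 3 WL1 libraries, which held for 16.4% of all genes. In the S-phase group 16 of 16 were lower, 6 fell, and the median was -0.53, with 11 of 16 not overlapping. For Mcm7 the sign was not stable, since its log2 fold change of -0.01 turned positive with each other scaling. The count of 16 became 26 without WL2 replicate 1, 2 without WL2 replicate 2, 5 without WL2 replicate 3, and 10, 7 and 6 without WL1 replicates 1, 2 and 3. Over all genes the calls lower moved too, from 439 to 995, 27 and 77 without WL2 replicates 1, 2 and 3 in turn. They were 187, 123 and 94 without WL1 replicates 1, 2 and 3 in turn, and 334 without Pre replicate 3. The S-phase count of 6 became 10 on leaving out WL2 replicate 1, 2 on leaving out Pre replicate 3, and 0 without WL2 replicate 2 or 3 or any WL1 library, where 9 to 11 members had an unadjusted p under 0.05. All 29 G2 and mitosis members were lower at WL2 in every one of these fits.

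Of the regulators of mitotic exit, Ube2c fell under every setting and Cdc20 did not. Ube2c (ENSMUSG00000001403), the E2 enzyme of the anaphase-promoting complex, was at 16.9, 14.5 and 14.4 CPM in Pre, 13.7, 18.2 and 17.8 CPM in WL1, and 6.9, 4.65 and 4.46 CPM in WL2. Pre and WL1 overlapped, and WL2 lay well below both. From WL1 to WL2 it fell by 1.63 ± 0.20 on the log2 scale (adjusted p = 0.00467), a call that held in each of the 9 fits without 1 library and in each of the 10 other settings. Cdc20 (ENSMUSG00000006398), an activator of the same complex, was at 7.37, 7.66 and 6.09 CPM in Pre, 7.11, 7.07 and 7.87 CPM in WL1, and 4.22, 3.29 and 2.03 CPM in WL2. Pre and WL1 again overlapped, and it fell by 1.21 ± 0.25 from WL1 to WL2 (adjusted p = 0.0314). That call was lost without any WL1 library or WL2 replicate 2 or 3.

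Cyclins and their kinase were lower as well. Ccna2 (ENSMUSG00000027715), the cyclin of S and G2 phases, was at 9.55, 10.3 and 9.28 CPM in Pre, 14.5, 16.7 and 17.4 CPM in WL1, and 7.12, 3.57 and 3.88 CPM in WL2. No library of any phase overlapped with another phase, and Ccna2 fell by 1.74 ± 0.24 from WL1 to WL2 (adjusted p = 0.0077), a call lost without WL2 replicate 2. Cdk1 (ENSMUSG00000019942), the mitotic kinase, was at 9.55, 9.2 and 8.03 CPM in Pre, 10.4, 12.7 and 15.6 CPM in WL1, and 7.34, 2.78 and 3.13 CPM in WL2. It showed the same order without overlap and fell by 1.54 ± 0.33 from WL1 to WL2 (adjusted p = 0.0348), a call lost on leaving out Pre replicate 3, each WL1 library, or WL2 replicate 2 or 3. Ccnb1 (ENSMUSG00000041431), the mitotic cyclin, was at 5.72, 7.33 and 5.17 CPM in Pre, 7.55, 11.5 and 10.7 CPM in WL1, and 5.86, 1.36 and 0.753 CPM in WL2. WL2 replicate 1 lay within Pre for this gene, and with a log2 fold change of -1.89 ± 0.56 it did not pass (adjusted p = 0.0877).

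Foxm1 (ENSMUSG00000001517), the transcription factor of many G2 and mitosis genes, was at 9.2, 7.93 and 8.63 CPM in Pre, 13.1, 12.7 and 13 CPM in WL1, and 6.13, 3.4 and 3.65 CPM in WL2. The phases did not overlap, and it fell by 1.56 ± 0.22 from WL1 to WL2 (adjusted p = 0.00797), lost without WL2 replicate 2. Bub1b stood at 7.45, 4.82 and 6.02 CPM in WL2 and fell by 1.16 ± 0.17 from WL1 (adjusted p = 0.00933), lost without WL2 replicate 2 or 3.

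Among motors and microtubule proteins of the spindle, Kif11, Kif20a and Nusap1 fell, while Kif23, Hmmr and Cenpe did not pass (log2 fold changes of -1.13, -1.26 and -1.14, adjusted p = 0.053, 0.115 and 0.193). Kif11 (ENSMUSG00000012443), the motor that pushes spindle poles apart, was at 8.91, 6.28 and 7.52 CPM in Pre, 11.5, 12.4 and 12.1 CPM in WL1, and 4.87, 2.61 and 4.86 CPM in WL2. It fell by 1.54 ± 0.24 from WL1 to WL2 (adjusted p = 0.0122), and the call held in all 9 fits without 1 library. Kif20a (ENSMUSG00000003779), a motor of cytokinesis, was at 4.42, 5.01 and 6.32 CPM in Pre, 9.07, 7.58 and 7.93 CPM in WL1, and 3.45, 1.87 and 2.61 CPM in WL2. Its phases did not overlap, and it fell by 1.63 ± 0.25 (adjusted p = 0.0111), lost without WL2 replicate 2 or 3. Nusap1 (ENSMUSG00000027306), which bundles spindle microtubules, was at 6.25, 6.45 and 8.31 CPM in Pre, 9.88, 9.69 and 9.78 CPM in WL1, and 4.43, 3.74 and 5.04 CPM in WL2. WL2 lay below Pre and Pre below WL1, and it fell by 1.15 ± 0.18 (adjusted p = 0.0124), lost without WL1 replicate 3 or WL2 replicate 2.

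Of 2 proteins of mitotic chromosomes, Top2a fell and Mki67 did not pass. Top2a (ENSMUSG00000020914), the topoisomerase that untangles sister chromatids, was at 21.9, 15 and 30.2 CPM in Pre, 30.6, 38.3 and 36.7 CPM in WL1, and 14.9, 5.89 and 9.79 CPM in WL2. It fell by 1.78 ± 0.32 from WL1 to WL2 (adjusted p = 0.0203), lost without WL1 replicate 2 or 3 or WL2 replicate 2 or 3. Mki67 (ENSMUSG00000031004), which coats mitotic chromosomes, was at 29.8, 6.12 and 28.3 CPM in Pre, 35.1, 35.1 and 37.1 CPM in WL1, and 16.2, 6.97 and 13.2 CPM in WL2. Pre replicate 2 was below all WL2 libraries, and with a log2 fold change of -1.56 ± 0.48 from WL1 to WL2 the gene did not pass (adjusted p = 0.0939), nor in the other comparisons (adjusted p = 0.357 for WL1 and 0.305 for WL2 against Pre). The remaining G2 and mitosis members that fell between WL1 and WL2 were Ccnb2, Cdca8, Cenpa, Cenpf, Tpx2 and Prc1, with log2 fold changes of -1.20 to -1.79.

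**Figure D3:**
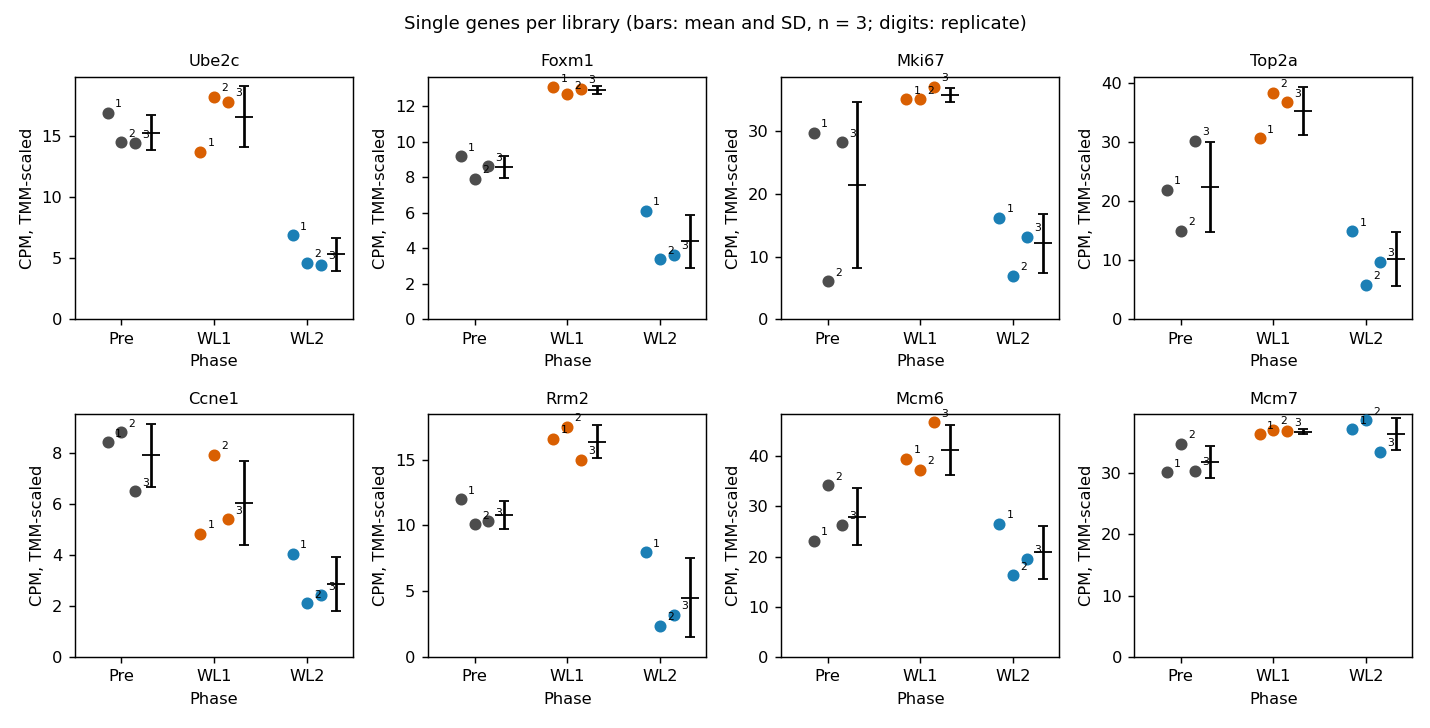
TMM-scaled CPM of 8 members in each library by phase, with bars for the mean and SD of 3 libraries and replicate numbers beside the points. Ube2c overlaps between Pre and WL1 and is lowest in WL2 (4.46 to 6.9 CPM), Foxm1 is highest at WL1 (12.7 to 13.1 CPM), Mki67 has 1 low Pre library (6.12 CPM), and Mcm7 stays between 30.1 and 38.6 CPM.

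Among the S-phase members, those that fell from WL1 to WL2 were parts of the helicase and its loader, a nucleotide enzyme and a chromatin factor. Rrm2 (ENSMUSG00000020649), the S-phase subunit of ribonucleotide reductase, was at 12, 10.1 and 10.3 CPM in Pre, 16.6, 17.5 and 15 CPM in WL1, and 7.94, 2.38 and 3.19 CPM in WL2. It was the 1 S-phase member in which all WL1 libraries were highest and all WL2 libraries lowest, a pattern seen in 10 of the G2 and mitosis members and in 0.400% of all genes. It fell by 1.86 ± 0.35 from WL1 to WL2 (adjusted p = 0.025), lost without any WL1 library or WL2 replicate 2 or 3. Uhrf1 (ENSMUSG00000001228), which guides DNA methylation to newly copied DNA, was at 10.1, 15.3 and 12.7 CPM in Pre, 15, 18.1 and 17.5 CPM in WL1, and 9.25, 2.83 and 5.15 CPM in WL2, and fell by 1.55 ± 0.34 (adjusted p = 0.0367).

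The helicase subunits did not move alike. Mcm6 (ENSMUSG00000026355) was at 23.2, 34.2 and 26.4 CPM in Pre, 39.5, 37.3 and 46.8 CPM in WL1, and 26.6, 16.3 and 19.6 CPM in WL2, and fell by 0.98 ± 0.20 from WL1 to WL2 (adjusted p = 0.0297). Mcm2 (ENSMUSG00000002870) was at 11.4, 21.5 and 14.7 CPM in Pre, 19.3, 18 and 18.2 CPM in WL1, and 11.3, 8.55 and 7.01 CPM in WL2, and fell by 1.04 ± 0.24 (adjusted p = 0.0414). Mcm5 (ENSMUSG00000005410) was at 15.5, 25.3 and 19.5 CPM in Pre, 21.3, 22.2 and 26.9 CPM in WL1, and 15.5, 8.33 and 9.56 CPM in WL2, and fell by 1.07 ± 0.25 (adjusted p = 0.0438). In all 3 subunits WL2 lay below WL1 without overlap. Mcm7, by contrast, was at 36.3 to 37.1 CPM in WL1 and 33.5 to 38.6 CPM in WL2, and Mcm4 at 20.2 to 22.8 and 17.8 to 20.7 CPM, with log2 fold changes of -0.01 ± 0.11 and -0.13 ± 0.12 (adjusted p = 0.972 and 0.604). A difference between the subunits was not tested.

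Cdc6 (ENSMUSG00000017499), which loads the helicase, was at 3.18, 4.19 and 3.42 CPM in Pre, 7.06, 6.2 and 4.55 CPM in WL1, and 3.34, 2.66 and 3.07 CPM in WL2. It was highest in WL1 without overlap and fell by 0.97 ± 0.23 to WL2 (adjusted p = 0.0475). The calls of Mcm2, Mcm5, Cdc6 and Uhrf1 were lost on leaving out Pre replicate 3, WL2 replicate 2, WL2 replicate 3 or each of the WL1 libraries, and that of Mcm6 on leaving out these except Pre replicate 3. Pcna (ENSMUSG00000027342) was at 45.7, 56.5 and 55.8 CPM in Pre, 64.2, 70.9 and 90.2 CPM in WL1, and 69.4, 47.8 and 45.6 CPM in WL2. WL2 replicate 1 lay within WL1, and the log2 fold change of -0.47 ± 0.18 did not pass (adjusted p = 0.174).

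Compared with Pre, WL2 was lower in 29 of 29 G2 and mitosis members, with a median of -0.86 against 0.01 for all genes, and 9 fell, where 49.1% of all genes tested were lower and 6.66% were called lower. The 9 were Top2a, Ccna2, Cdc20, Cenpf, Kif11, Kif20a, Nusap1, Ube2c and Foxm1. Ube2c fell by 1.51 ± 0.20 (adjusted p = 0.00107), again in every fit without 1 library and in each other setting. Cdc20 fell by 1.14 ± 0.25 (adjusted p = 0.0172), lost without WL2 replicate 2, Foxm1 by 0.96 ± 0.22 (adjusted p = 0.0204), lost without Pre replicate 1 or WL2 replicate 2 or 3, and Top2a by 1.13 ± 0.32 (adjusted p = 0.0498), lost without 7 of the 9 libraries in turn, all but Pre replicate 2 and WL2 replicate 1. Smaller falls were those of Ccna2 (1.00 ± 0.24, adjusted p = 0.0271), lost without each Pre library or WL2 replicate 2 or 3, and Kif20a (0.99 ± 0.25, adjusted p = 0.0317), lost without Pre replicate 3, WL1 replicate 2 or WL2 replicate 2 or 3. Kif11 fell by 0.88 ± 0.24 (adjusted p = 0.0457) and Nusap1 by 0.67 ± 0.18 (adjusted p = 0.0436), and both calls were lost without each library other than Pre replicate 2. At an unadjusted p under 0.05, 18 of 29 were lower, against 14.4% of all genes. The count of 9 became 18 without WL2 replicate 1, 1 without WL2 replicate 2, 3 without WL2 replicate 3 or Pre replicate 3, and 4 without Pre replicate 1 or WL1 replicate 2. It was 6 without WL1 replicate 1 or 3, and 2 when Pre and WL2 were fitted without WL1. Over all genes the calls lower, 1233 in the main fit, were 997, 575 and 723 without WL2 replicates 1, 2 and 3 in turn. They were 941 and 1034 without Pre replicates 1 and 3 in turn, and 947 with Pre and WL2 fitted alone. Leaving out WL1 replicates 1, 2 and 3 in turn gave 1114, 1018 and 1109. All 3 WL2 libraries lay below all 3 Pre libraries for 14 G2 and mitosis and 7 S-phase members, against 15.8% of all genes.

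The S-phase members were divided in this comparison. Their median was -0.39, 13 of 16 were lower, and only Rrm2 and Ccne1 fell. Ccne1 (ENSMUSG00000002068), the cyclin E1 of the G1 to S transition, was at 8.43, 8.82 and 6.51 CPM in Pre, 4.83, 7.94 and 5.4 CPM in WL1, and 4.05, 2.1 and 2.43 CPM in WL2. Unlike most members it was not highest in WL1, and it fell by 1.46 ± 0.29 from Pre to WL2 (adjusted p = 0.0114), lost without WL2 replicate 2 or 3. Rrm2 fell by 1.26 ± 0.35 (adjusted p = 0.049), a call that held only without WL2 replicate 1 among the fits that left out a library. The count of 2 became 5 without WL2 replicate 1, 3 without Pre replicate 1, 1 without Pre replicate 3 or any WL1 library, and 0 without WL2 replicate 2 or 3, where 6 members had an unadjusted p under 0.05. Mcm4, Mcm7 and Pcna were not below Pre, with log2 fold changes of 0.04 ± 0.12, 0.20 ± 0.11 and 0.04 ± 0.18 (adjusted p = 0.883, 0.263 and 0.905).

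**Figure D4:**
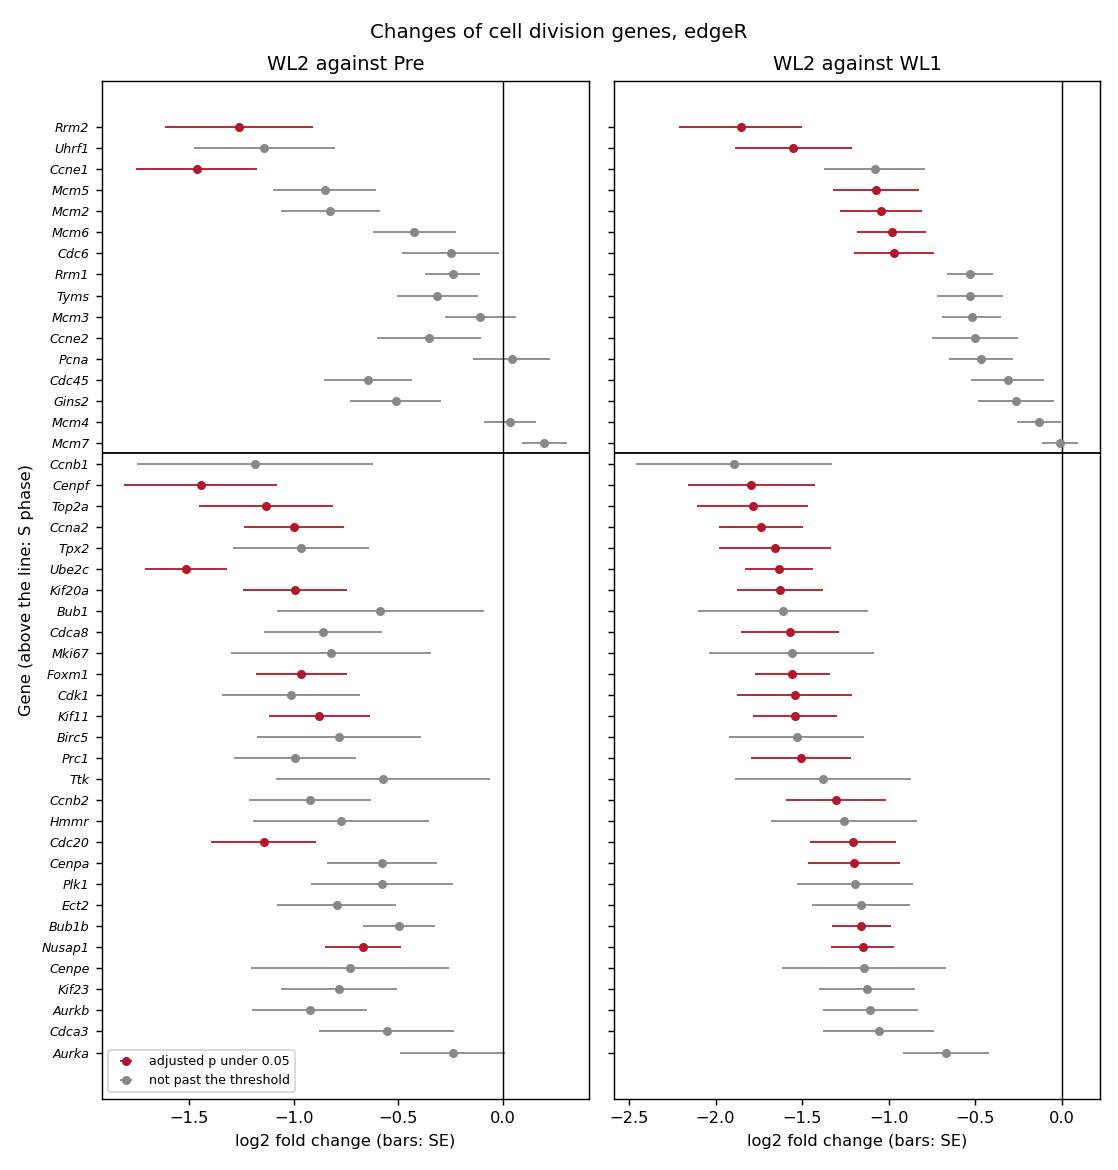
Log2 fold change of each member for WL2 against Pre (left) and WL2 against WL1 (right), with bars for the SE. Red points passed an adjusted p of 0.05 (edgeR) and grey points did not. All 29 G2 and mitosis members lie left of 0 in both panels, while Mcm4, Mcm7 and Pcna lie at or right of 0 against Pre.

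WL1 was also set against the average of the other phases. This combined contrast shares its libraries with the comparisons above, and a gene can pass it through a fall at WL2 alone, so it is no test of a peak: Ube2c passed it with a log2 fold change of 0.12 between Pre and WL1 (adjusted p = 0.738). Of the G2 and mitosis members 29 of 29 were higher, as were 51.3% of all genes, and 28 at an unadjusted p under 0.05, as were 11.7%. In all, 12 of 29 passed the threshold, where 2.81% of all genes tested were called higher, and the median log2 difference was 1.01. They were Top2a, Ccna2, Cdca8, Cenpa, Bub1b, Kif11, Kif20a, Tpx2, Nusap1, Ube2c, Prc1 and Foxm1, led by Ccna2 (1.24 ± 0.19, adjusted p = 0.0164) and Bub1b (0.91 ± 0.14, adjusted p = 0.0164). Among the S-phase members 3 of 16, Mcm6, Rrm2 and Cdc6, were called, and the median was 0.44. All WL1 libraries lay above all Pre and WL2 libraries for 20 G2 and mitosis and 5 S-phase members, against 5.72% of all genes. The G2 and mitosis count was 24 without WL2 replicate 1, 7 without Pre replicate 1, 3 and 5 without WL2 replicates 2 and 3, and 0 without any 1 of the WL1 libraries, where 23 to 27 members had an unadjusted p under 0.05. Over all genes the calls higher, 520 in the main fit, were 4, 40 and 11 without WL1 replicates 1, 2 and 3 in turn. They were 914, 22 and 52 without WL2 replicates 1, 2 and 3 in turn, and 140 and 378 without Pre replicates 1 and 3 in turn. The S-phase count was 9 without WL2 replicate 1 and 0 on leaving out Pre replicate 1 or 3, each WL1 library, or WL2 replicate 2 or 3, where 8 to 10 had an unadjusted p under 0.05. Over all 3 phases, an edgeR test for any difference called 18 of 29 G2 and mitosis members and 7 of 16 S-phase members, where 13.1% of all genes were called. The former count was 8 without WL2 replicate 2 and 10 without WL2 replicate 3 or WL1 replicate 2 or 3. The latter was 4 on leaving out Pre replicate 3, 2 to 3 on leaving out a WL1 library, 1 on leaving out WL2 replicate 2 and 0 on leaving out WL2 replicate 3.

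Other genes of the cycle were read from lists of 44 replication genes, 60 mitosis genes, 12 G1 drivers and 24 brakes. From WL1 to WL2, 30 of the 60 other mitosis genes fell and none rose, with a median of -1.28, and 10 of the 44 other replication genes fell and none rose, with a median of -0.50, where 2.37% of all genes were called lower. Among the mitosis genes the largest falls were of Spc24, a kinetochore subunit, from 4.78 ± 1.41 to 1.12 ± 0.627 CPM (log2 fold change -2.08 ± 0.44, adjusted p = 0.0331), and of the kinase Melk, from 5.39 ± 1.11 to 1.26 ± 0.854 CPM (-2.08 ± 0.40, adjusted p = 0.0254). Among the replication genes they were those of the checkpoint adaptor Clspn (-1.96 ± 0.47, adjusted p = 0.0496) and the repair gene Brca1 (-1.87 ± 0.34, adjusted p = 0.0203). Against Pre, WL2 was lower past the threshold in 12 mitosis genes, led by Gtse1 (-2.06 ± 0.27) and Sgo2a (-1.72 ± 0.36), where 6.66% of all genes were, and in 3 of 44 replication genes, a share near that of all genes, with the largest changes in E2f8 (-1.33 ± 0.30) and Chaf1a (-1.02 ± 0.19). The calls of Gtse1 and Chaf1a held without each library in turn, and those of Sgo2a and E2f8 were lost without WL2 replicate 2 or 3. At WL1 against Pre, 4 of each list rose, where 2.60% of all genes were called higher, with Dlgap5 (1.31 ± 0.30) and Ndc80 (1.17 ± 0.31) ahead among mitosis genes and the replication kinase subunit Dbf4 (0.86 ± 0.16) and DNA ligase Lig1 (0.80 ± 0.17) among replication genes. In the combined contrast, where 2.81% of all genes were called higher, 18 mitosis genes, led by Ndc80 (1.59 ± 0.26) and Dlgap5 (1.41 ± 0.25), and 6 replication genes, led by Brca1 (1.54 ± 0.27) and Mcm10 (1.15 ± 0.28), were called. These calls were lost on leaving out 4 of the 9 libraries in turn for Ndc80 and Dlgap5, 5 for Brca1 and 8, all but WL2 replicate 1, for Mcm10. The 30 mitosis genes became 14, 4 and 3 on leaving out WL1 replicate 1, 2 or 3, and 0 on leaving out WL2 replicate 2 or 3, where edgeR gave 47 and 48 lower at an unadjusted p under 0.05. Over all genes the calls lower in these fits were 187, 123 and 94, and 27 and 77. The calls of Spc24 and Brca1 from WL1 to WL2 were lost without WL1 replicate 2 or 3 or WL2 replicate 2 or 3, and those of Melk and Clspn also without WL1 replicate 1, with Clspn lost without Pre replicate 1 too. Of the rises at WL1, Dbf4 was lost without WL1 replicate 3 alone, while Lig1, Dlgap5 and Ndc80 were lost without 5, 4 and 7 of the libraries in turn.

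Genes that start or restrain the cycle took several courses. Myc, a growth-promoting transcription factor, was at 14.6 ± 2.76 CPM in Pre, 24 ± 2.72 in WL1 and 28.3 ± 2.39 in WL2 (SD, n = 3), and rose against Pre at both times, by a log2 fold change of 0.72 ± 0.16 (adjusted p = 0.0244) and 0.96 ± 0.16 (adjusted p = 0.00423). E2f2, an activator of S-phase genes, fell at both times, from 12.5 ± 5.39 to 5.73 ± 1.11 and 3.52 ± 0.316 CPM (adjusted p = 0.0407 and 0.00355). The calls at WL2 held without each library in turn, whereas at WL1 that of Myc was lost without Pre replicate 1 or WL1 replicate 1 or 3, and that of E2f2 without Pre replicate 2, each WL1 library or WL2 replicate 2 or 3. Ccnd1, cyclin D1, was at 47.4 ± 8.37 and 52.9 ± 3 CPM in Pre and WL1 and fell to 26.7 ± 6.23 CPM at WL2, by 0.83 ± 0.18 against Pre (adjusted p = 0.0157) and 0.99 ± 0.18 against WL1 (adjusted p = 0.02). Both calls of Ccnd1 were lost without WL2 replicate 2 or 3, and the latter also without each WL1 library. Ccnd2 fell from Pre to WL2 by 0.69 ± 0.12 (adjusted p = 0.00472). Of the 12 G1 drivers, 1 rose and 1 fell at WL1, where 2.60% of all genes were called higher and 4.69% lower, and 1 rose and 3 fell at WL2 against Pre, where 3.35% were called higher and 6.66% lower, and Ccnd1 was the 1 that fell from WL1 to WL2.

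Among the brakes, the CDK4 and CDK6 inhibitors Cdkn2c and Cdkn2b fell by WL1 and stayed low. Cdkn2c was at 212 ± 15.8, 88.2 ± 15.5 and 108 ± 17.5 CPM in Pre, WL1 and WL2, with log2 fold changes against Pre of -1.27 ± 0.16 and -0.98 ± 0.16 (adjusted p = 0.00152 and 0.00336). Cdkn2b was at 20.4 ± 2.79, 10.1 ± 0.101 and 9.29 ± 0.345 CPM (adjusted p = 0.00234 and 0.000682). These 4 calls held without each library in turn and in all other settings. In the combined contrast Cdkn2c was the 1 brake called lower (-0.78 ± 0.14), where 1.77% of all genes were. In all, 4 of 24 brakes fell and none rose at WL1, against 4.69% and 2.60% of all genes. At WL2 against Pre 3 fell, against 6.66%, and 1 rose, against 3.35%, with library totals alone calling 10 in place of 4. The 1 that rose was E2f5 (0.68 ± 0.15, adjusted p = 0.0206), a call lost without Pre replicate 1 or each of the WL2 libraries. Between WL1 and WL2, where the mitosis genes fell, edgeR called none of the 24 brakes, with 3 at an unadjusted p under 0.05, and the median was -0.02.

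Markers of cell types moved beside the members. The 15 macrophage markers summed to 1987 to 3837 CPM in Pre, 3612 to 6624 in WL1 and 2205 to 3856 in WL2, and the 12 markers of lipid-associated macrophages to 5870 to 14920, 12940 to 18660 and 7022 to 10370 CPM. Most of the latter sum at Pre came from Lpl (9650 CPM), a lipase that adipocytes express too. Within WL2, replicate 1 was highest for 11 of 15 macrophage and 11 of 12 lipid-associated macrophage markers, against 39.0% of all genes. WL2 replicate 2 was lowest for 10 and 5 of them, against 30.2%. Pre replicate 2, which had the lowest G2 and mitosis sum of Pre, was lowest of Pre for 1 of 15 and 2 of 12 of these markers, against 37.1% of all genes. It was highest of Pre for 10 and 4 of them. From WL1 to WL2, 13 of 15 macrophage markers and 12 of 12 lipid-associated macrophage markers were lower, of which 0 and 1 (Fabp5) fell, with medians of -0.64 and -1.28. At an unadjusted p under 0.05 edgeR gave 7 and 8 lower. Of all genes tested 50.1% were lower, 2.37% were called lower and 12.8% were lower at an unadjusted p under 0.05. At WL1 against Pre, 6 of the 12 lipid-associated macrophage markers rose, among them Trem2 (log2 fold change 1.83) and Gpnmb (2.29). The G2 and mitosis members had 1 call there, and 2.60% of all genes were called higher. The part of macrophages in the members' levels was not tested.

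**Figure D5:**
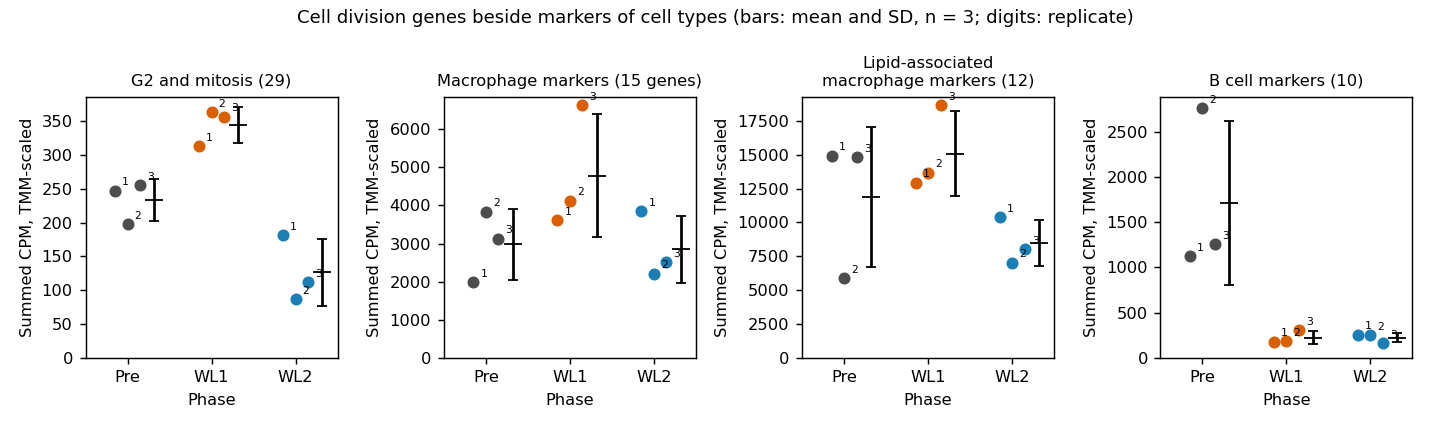
Summed TMM-scaled CPM per library by phase for the 29 G2 and mitosis members and for markers of macrophages, lipid-associated macrophages and B cells, with bars for the mean and SD of 3 libraries. WL2 replicate 1 is the highest WL2 library in the first 3 panels, and the B cell sum drops from 1127 to 2760 CPM in Pre to 162.8 to 302.2 CPM in WL1 and WL2, a course unlike that of the G2 and mitosis members.

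The other marker lists took other courses. The 10 B cell markers summed to 1127 to 2760 CPM in Pre, 177.8 to 302.2 in WL1 and 162.8 to 254.8 in WL2, with Pre replicate 2 highest. Against Pre 10 of 10 were lower at both times, but only 1 fell at WL1 and 1 at WL2, where 4.69% and 6.66% of all genes were called lower. At an unadjusted p under 0.05 edgeR gave 7 and 1 lower. Germinal centre markers, of which 5 of 6 were tested, stayed between 82.1 and 150.2 CPM. T cell markers summed to 29.5 to 88.6 CPM in Pre, 78.6 to 157.9 in WL1 and 35 to 81 in WL2, but only Il7r was higher at WL1 than in Pre (log2 fold change 2.15), and 9 of 10 were lower, with a median of -1.15. Adipocyte markers summed to 29540 to 37430 CPM in Pre, 20940 to 27510 in WL1 and 30720 to 33730 in WL2. They were lowest in WL1, where the sums of the members were highest. Their mean at WL2 (32170 CPM) was near that at Pre (32480 CPM), unlike the members, whose mean sums were lower at WL2. At WL1 against Pre 10 of 10 adipocyte markers were lower and 4 fell (Plin1, Lep, Cidec and Retn). Of the 18510 genes tested, 8877 were lower and 4.69% were called lower. From WL1 to WL2 9 of 10 adipocyte markers were higher, 3 rose (Cfd, Retn and Pparg) and Lep fell. Of all genes 9207 were higher, 242 were called higher and 2.37% were called lower. Adipocyte progenitor markers stayed between 3345 and 5741 CPM and endothelial markers between 1333 and 2447 CPM, with median log2 fold changes from WL1 to WL2 of 0.19 and 0.04. Mesothelial markers ranged from 39.1 to 385.3 CPM in Pre, 46.2 to 233.6 in WL1 and 248.5 to 701.5 in WL2. Of the markers of dividing precursors in blood formation, 4 of 6 erythroid genes summed to 129 to 171 CPM in Pre and 56.2 to 84.3 after it, and 5 of 9 neutrophil precursor genes to 10.5 to 27.2 CPM over the 9 libraries. Against Pre, 3 of the 4 erythroid genes fell at WL1 and 2 at WL2, where 4.69% and 6.66% of all genes were called lower. Of the 5 neutrophil precursor genes 1 rose and 1 fell at each time, where 2.60% and 3.35% of all genes were called higher. Spermatogenic markers, of which 3 of 10 were tested and Dmrtb1 and Piwil1 were at 0, summed to 7.49 to 18.8 CPM in Pre, 29 to 33.7 in WL1 and 14 to 28.5 in WL2. Like the members they were highest in WL1, but their mean sum at WL2 (19.28 CPM) was above that at Pre (12.97 CPM). Nearly all of this sum was Sycp3, which rose at WL1 against Pre (log2 fold change 1.31). Liver markers ranged from 2.39 to 88.2 CPM. The part of these cell types in the members' levels was not tested.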

How the data were processed

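Total RNA of epididymal adipose tissue was sequenced in 9 libraries. The authors deposited raw read counts per gene with FPKM beside them for all libraries. Per the labels, the submitters' processing notes name CASAVA, HISAT, HISAT2 and TopHat2 and the builds GRCm38 and mm10, while counter, annotation and strand setting were not given in the sources used here, so reads of overlapping and antisense genes cannot be told apart. Gene coordinates in the table matched GENCODE M21 (GRCm38) for 1 of the 45 members and are not printed. FPKM values in the deposited table were used for levels per length and for an alternative test.

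The 18510 genes that reached 0.5 CPM in 1 or more of the 9 libraries were fitted with edgeR 4.0.16 (TMM, quasi-likelihood) in R 4.3.3 over all 3 phases, and the standard error is the absolute log2 fold change divided by the square root of F. Alternatives used DESeq2 1.42.0, limma 3.58.1 on log2(FPKM + 1) or log2(FPKM + 0.1), other scaling factors and filters, the compared phases alone, a replicate block, and each library left out in turn. The main edgeR fit, DESeq2 and limma on log2(FPKM + 1) were tried on simulated counts with changes planted in WL1 or WL2, each against Pre. The search for promoter letters was tried on a made sequence. The other comparisons and settings were not tried on simulated data. Replicates were no duplicates (chi-square per degree of freedom 9.26 to 49.7).

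The members and lists were chosen with earlier results of these data known. Members past the threshold were named with each library's value, limited to the 8 with the lowest adjusted p in each group, and Mki67, Top2a, Cdk1, Ccnb1, Pcna, Mcm2, Ccne1 and Foxm1 were always named. Mcm4, Mcm7, Cdc45, Gins2, Kif23, Hmmr and Cenpe were added after their values were seen. Of other lists, the 2 with the largest change were named, and Ccnd2 and the markers named were chosen after their values were seen. Counting error in the lowest members is large, since 8 reads were the minimum.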

Additional observations from a re-analysis of the deposited data

How the results depend on the processing

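Counts are of members past the adjusted p threshold, and 29 of 29 G2 and mitosis members kept their direction in every setting for WL2 against Pre, WL2 against WL1 and the combined contrast (WL1 against the average of the other phases). The reported G2 and mitosis counts of 1, 9, 16 and 12 (WL1 against Pre, WL2 against Pre, WL2 against WL1, combined contrast, the order used below) became 2, 15, 25 and 22 with DESeq2 and 2, 14, 26 and 22 with no filter. Over all genes the calls higher, lower, lower and higher, in this order, were 482, 1233, 439 and 520 in the main fit. They were 944, 1692, 1197 and 1045 with DESeq2 and 829, 1401, 1159 and 993, of 29550 tested, with no filter. With limma on log2(FPKM + 0.1) WL1 against Pre, WL2 against WL1 and the combined contrast gave 0, 8 and 5. Over all genes limma called 195 higher, 146 lower and 60 higher there. The WL2 against Pre count was 6 with library totals only and with limma at either pseudocount. Other small moves of a count are not all listed here or below. WL1 against Pre also gave 2 with library totals only, with limma on log2(FPKM + 1) and with the compared phases alone, and WL2 against Pre gave 2 with the compared phases alone. The S-phase counts of 0, 2, 6 and 3 became 1 for WL1 against Pre with DESeq2, and for WL2 against Pre 1 (library totals only, limma on log2(FPKM + 0.1), compared phases alone), 5 (DESeq2, no filter) and 4 (0.5 CPM in at least 3 libraries). For WL2 against WL1 they became 3 and 1 with limma on log2(FPKM + 1) and log2(FPKM + 0.1), and for the combined contrast 9 (DESeq2), 7 (no filter), 1 and 0 (limma, 2 pseudocounts). On the log2(FPKM + 1) scale, which understates low genes, the G2 and mitosis medians shrank to 0.35, -0.42, -0.81 and 0.59 in this order. The cause of the other differences was not tested. With each library left out in turn, the G2 and mitosis counts ranged from 0 to 5, 1 to 18, 2 to 26 and 0 to 24, and the S-phase counts from 0 to 1, 0 to 5, 0 to 10 and 0 to 9. Over all genes the calls in the same directions ranged from 96 to 631, 575 to 1114, 27 to 995 and 4 to 914. The test for any difference ranged from 0 to 9 (S phase) and 8 to 25 (G2 and mitosis), and the median for WL2 against Pre from -1.28 to -0.63.

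The replicate numbers are shared by the phases, but libraries of the same number deviated together with correlations of only -0.23 to 0.09. Those of different numbers gave -0.19 to 0.23. No pairing by number was seen, though low correlations cannot exclude one. With a replicate block the G2 and mitosis counts were 0, 7, 12 and 8 for WL1 against Pre, WL2 against Pre, WL2 against WL1 and the combined contrast. The S-phase counts were 1 for WL2 against WL1, 0 for the combined contrast and 2 for any difference. In the same order of comparisons, the block gave other replication genes 4 for WL2 against WL1, other mitosis genes 2, 14 and 5 for WL1 against Pre, WL2 against WL1 and the combined contrast, and G1 drivers 1 for WL1 against Pre.

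For other replication genes the counts of 4, 3, 10 and 6 became 6, 18 and 13 for WL2 against Pre, WL2 against WL1 and the combined contrast with DESeq2, 11 for the combined contrast with no filter, 1 for WL2 against Pre with the compared phases alone, and 2, 4 and 3 for WL1 against Pre, WL2 against WL1 and the combined contrast with limma on log2(FPKM + 0.1). Other mitosis genes (4, 12, 30 and 18) became 19, 47 and 38 in these 3 with DESeq2, 29 for the combined contrast with no filter, 11 for the combined contrast with limma on log2(FPKM + 1), 1, 18 and 5 for WL1 against Pre, WL2 against WL1 and the combined contrast on log2(FPKM + 0.1), and for WL1 against Pre 2 with relative log expression factors and 1 with the compared phases alone. G1 drivers (2, 4, 1 and 0) became 5, 3 and 1 (WL1 against Pre, WL2 against WL1, combined contrast) with DESeq2, 2 for WL2 against WL1 and 1 for the combined contrast with no filter, 1 for the combined contrast with library totals only, 1 and 0 for WL1 against Pre with limma at both pseudocounts, 0 there with the compared phases alone, and 0 for WL2 against WL1 on log2(FPKM + 0.1). Cycle brakes became 10 for WL2 against Pre with library totals only, and for the combined contrast (1) became 3 with DESeq2, 2 with upper quartile factors, 0.5 CPM in at least 3 libraries or log2(FPKM + 1), and 0 on log2(FPKM + 0.1). With each library left out, replication genes ranged over 0 to 6, 1 to 5, 1 to 15 and 0 to 13, mitosis genes over 0 to 5, 1 to 21, 0 to 41 and 0 to 34, G1 drivers over 0 to 2, 0 to 2 and 0 to 1 (WL1 against Pre, WL2 against WL1, combined contrast), and brakes over 2 to 4 (WL1 against Pre) and 0 to 2 (combined contrast).

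Values near 0 changed sign. Mcm3 for WL2 against Pre (-0.11) was 0.038 with library totals only and ranged from -0.35 to 0.0097 with libraries left out. Mcm7 for WL2 against WL1 (-0.01) was 0.0047, 0.0491, 0.0405, 0.0048, 0.013, 0.0046 and 0.0049 with relative log expression factors, upper quartile factors, library totals only, DESeq2, 0.5 CPM in at least 3 libraries and limma at both pseudocounts, and ranged from -0.0544 to 0.0472. Gins2 for the combined contrast (0.01) was -0.0065, -0.0374, -0.0053, -0.0173, -0.0242 and -0.0368 in the same settings without library totals, -0.0007 with the replicate block, and ranged from -0.21 to 0.18. Cdc45 for the combined contrast (-0.0089) was 0.012 with library totals only and ranged from -0.13 to 0.12. With libraries left out, Mcm4 and Pcna for WL2 against Pre ranged from -0.0484 to 0.10 and -0.17 to 0.15, Ccne2 and Cdc20 for WL1 against Pre from -0.0047 to 0.27 and -0.0323 to 0.13, and the median of the brakes for WL2 against Pre from -0.0293 to 0.0858.

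Depth limits the lowest members most, since Ttk had 8 reads, Bub1 9 and Ccnb1 13 in their lowest library. With 3 libraries per phase and a call count that moves with nearly every library, a member that missed the threshold was not shown to be unchanged. Shares of promoter windows with CCAAT moved to 46.7% (S phase) and 65.4% (G2 and mitosis) on the gene's strand alone, against 21.1% of all windows.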
